A study of Mus musculus with 8 samples.

Results

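Open chromatin in group 2 innate lymphoid cells (ILC2s) is not spread evenly along the genome, and the 300 most strongly called clusters of accessible regions in the GFP control cells at 4 h are described here. They were found by merging the overlapping peaks of that list into 42665 regions, joining regions no more than 12500 bp apart, and adding up within each cluster the highest −log10 p of every region. Of 4806 clusters with at least 3 regions, the 300 with the largest sums were kept, so the members were chosen by −log10 p and position in the GFP 4 h list. They hold 2369 of the 42665 regions (5.55%) and 8.19% of the summed −log10 p of the list. The proposed name for them was enhancer clusters, but 1018 of the 2369 regions (43.0%) had their summit within 1 kb of a protein-coding gene start, and these carried 60.5% of the sum. They are therefore called clusters of accessible regions below. Promoter entries covered 79.9% of coding genes. For the other genes both gene ends were counted as starts, so some regions counted at starts may lie at the far end of a gene.

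Chromatin was profiled by ATAC-seq, in which the Tn5 transposase inserts adapters into open DNA, in thymic ILC2s from mice on a C57BL/6 background with the plck-Id1 transgene, which places Id1 under the promoter of the T lineage kinase gene Lck. All 4 groups carry this transgene, the controls included. The retrovirus delivered either GFP by itself or GFP together with E47-ER, in which the E protein E47 is joined to a tamoxifen-responsive part of the estrogen receptor. Cells were sorted for GFP, expanded with cytokines that included IL-7, IL-25 and IL-33, and treated with 4-hydroxytamoxifen for 4 or 16 h. The groups are thus GFP 4 h, GFP 16 h, E47 4 h and E47 16 h, with 2 samples each and with the drug given in all of them. Neither the age of the animals nor whether samples of 1 group were separate cultures or mice is given in the labels. In every group the free-text descriptions give the empty vector to the first replicate and the vector with E47-ER to the second, against the titles and transduction labels, which are used here. Each group is represented by 1 peak list made from both samples, with 42665, 52846, 49811 and 40649 merged regions in the order given, so there is no spread between replicates, no test between groups is possible, and read depth is unknown. Exact binomial intervals at 95% are given in parentheses and cover counting error only. They treat regions as independent, which neighbours in a cluster are not.

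E proteins are basic helix-loop-helix factors that bind E-box sequences and promote lymphocyte development, while Id1 pairs with them and prevents their binding to DNA. ILC2s are tissue lymphocytes that need GATA3 and secrete type 2 cytokines such as IL-13 and IL-5. Dense clusters of open chromatin are known at genes that define a cell's identity, where many enhancers lie close together, and also at gene-rich stretches where many promoters lie close together. An ATAC peak marks open DNA and does not separate these 2 kinds of element, and no histone mark was measured.

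In place of whole clusters, 200 bases before the start of 6 genes are shown, because promoters carry most of the summed signal and these genes cover the range seen: a histone gene, a gene common to all cells, cytokine and cytokine receptor genes, an AP-1 gene and the gene of a cluster with many missing regions. Sequences are from RefSeq on GRCm38.p6 and run 5′ to 3′ on the strand of the gene. Capitals mark every match, on either strand, to the CCAAT box, the GC box GGGCGG, the E-boxes CAGCTG and CAGGTG, the ETS motif CCGGAAG, the AP-1 motif TGANTCA, the GATA motif AGATAA and the TATA motif TATAAA, and overlapping matches run together. A match describes the letters only.
H2bc11 (chr13:22042998-22043197, plus strand): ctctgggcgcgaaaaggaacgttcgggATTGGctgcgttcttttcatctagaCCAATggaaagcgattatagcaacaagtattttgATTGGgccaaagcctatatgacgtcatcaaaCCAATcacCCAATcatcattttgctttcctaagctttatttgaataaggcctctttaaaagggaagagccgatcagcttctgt
Trim28 (chr7:13023952-13024151, plus strand): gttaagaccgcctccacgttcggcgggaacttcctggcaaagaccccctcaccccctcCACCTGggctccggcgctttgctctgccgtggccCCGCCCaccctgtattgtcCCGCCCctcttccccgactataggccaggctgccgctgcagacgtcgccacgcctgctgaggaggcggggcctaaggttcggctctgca
Ifngr2 (chr16:91546859-91547058, plus strand): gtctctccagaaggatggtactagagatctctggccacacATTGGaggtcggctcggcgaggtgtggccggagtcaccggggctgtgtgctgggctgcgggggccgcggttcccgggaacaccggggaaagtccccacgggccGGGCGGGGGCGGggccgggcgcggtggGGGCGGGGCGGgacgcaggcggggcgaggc
Junb (chr8:84978749-84978948, minus strand): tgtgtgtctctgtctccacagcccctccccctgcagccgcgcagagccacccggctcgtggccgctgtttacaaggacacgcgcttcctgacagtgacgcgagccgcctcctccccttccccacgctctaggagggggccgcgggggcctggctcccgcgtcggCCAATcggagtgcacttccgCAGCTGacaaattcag
Il13 (chr11:53634703-53634902, minus strand): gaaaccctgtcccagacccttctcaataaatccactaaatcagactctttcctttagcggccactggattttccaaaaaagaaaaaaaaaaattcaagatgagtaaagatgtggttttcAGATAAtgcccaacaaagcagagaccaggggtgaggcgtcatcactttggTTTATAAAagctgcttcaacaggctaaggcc
Gpr65 (chr12:98268435-98268634, plus strand): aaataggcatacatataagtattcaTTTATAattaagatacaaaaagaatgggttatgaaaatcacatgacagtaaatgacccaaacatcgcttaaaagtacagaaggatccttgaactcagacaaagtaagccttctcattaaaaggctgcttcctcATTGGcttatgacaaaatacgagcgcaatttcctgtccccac

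The histone promoter H2bc11 holds 5 matches, all to CCAAT, in 42.5% GC. Trim28, which encodes a corepressor that silences retroelements, has 68% GC with 2 GC boxes and an E-box, and Ifngr2, a chain of the interferon gamma receptor, has 75% GC with 4 GC boxes and a CCAAT box. Junb, an AP-1 subunit, has an E-box and a CCAAT box. Il13 and Gpr65 are AT-rich, with 41.5% and 35.5% GC, and both carry TATAAA, Il13 with a GATA motif and Gpr65 with a CCAAT box. The region at the Il13 start had a fold enrichment over local background of 3.45 in GFP 4 h, 3.52 in GFP 16 h, 3.99 in E47 4 h and 3.67 in E47 16 h, each on the scale of its own list. The region at the H2bc11 start had 11.8, 11.1, 13.8 and 11.95 in the same order, and that at the Gpr65 start 5.92, 6.14, 5.90 and 5.83. All 6 promoters shown lie in regions called by all 4 lists.

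The values in this paragraph come from the GFP 4 h list that chose the clusters and are a description. A cluster held a median of 7 regions (3 to 28), spanned a median of 31186 bp (1281 to 111490) and had a median summed −log10 p of 1010 (838 to 17786). Called DNA made up 1.18 Mb of the 10.1 Mb spanned. The remaining 4506 clusters held a median of 4 regions over 12489 bp, with a median sum of 306. Within a cluster the strongest region carried a median of 37.7% of the sum, and in 89 clusters it carried more than 50%. A span under 5 kb was found for 11 clusters, so a large sum came from a few very strong regions as well as from many regions in a row. At the limit, the clusters at Egln2 (839.8), Uqcrh (839.3) and Ing1 (837.871) were the last kept, and those at Fh1 (837.788), Usp5 (837.476) and Kif16b (836.8) the first left out.

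**Figure D1:**
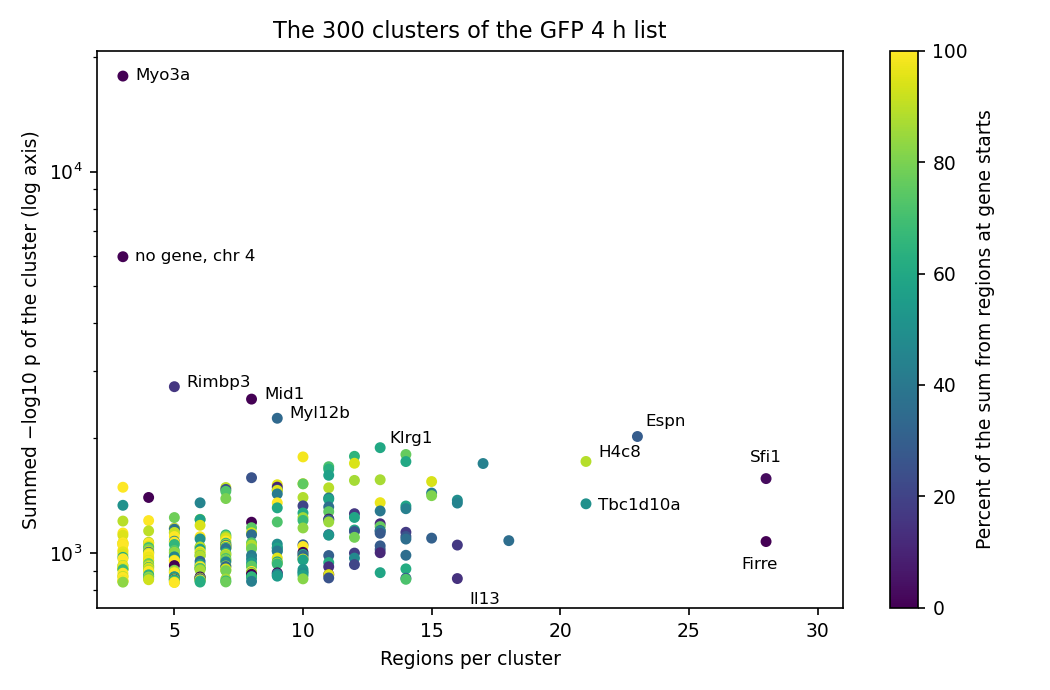
Each point is 1 of the 300 clusters of the GFP 4 h list, with its number of regions on the horizontal axis, its summed −log10 p on the vertical log axis and, as colour, the percent of the sum from regions within 1 kb of a gene start. A sum of 1163 marks the upper quartile, while the Myo3a cluster with 3 regions reaches 17786.

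Gene starts were more frequent in these clusters than in other clusters. Regions within 1 kb of a start made up 43.0% (41.0 to 45.0) of the cluster regions, 29.2% (28.5 to 29.8) of regions in the remaining clusters of 3 or more, and 32.7% of all GFP 4 h regions. Another 33.7% of cluster regions lay inside genes and 23.3% between genes. The strongest region lay at a gene start in 248 of the 300 clusters, and 245 clusters had at least 2 start regions and 77 at least 5. Only 15 clusters (5%) had no region at a start, against 1812 of the remaining 4506 (40.2%). The sum favours such clusters by construction, since regions at starts are stronger: in the whole list they carried 60.1% of the summed −log10 p.

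The leading sum belonged to a cluster of 3 regions within 2682 bp inside Myo3a, an unconventional myosin gene (chr2:22587539-22590220). Its strongest region had a −log10 p of 9896 at a fold enrichment of only 11.6, which 67.2% of the fold values in the list do not exceed. The next cluster lay on chromosome 4 (chr4:80002733-80004013), 831269 bp from the nearest gene start, with a sum of 5981 and a fold of 49.5 at its strongest region. Both were called with all 3 regions in all 4 lists. Rimbp3, Mid1 and Myl12b followed, with sums of 2731, 2533 and 2257. In all of these leading 5 clusters the strongest region lay away from gene starts, as it did in only 52 clusters overall. No list of regions with anomalous signal was applied here, and why these clusters reach such sums was not tested.

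Below these, long gene-dense clusters led. The cluster at Espn, an actin-bundling protein gene, was the longest at 111490 bp and held 23 regions with 5 coding genes, among them Tnfrsf25, the receptor for the cytokine TL1A. The Ccdc9 cluster (13 regions) holds Bbc3, a BH3-only gene that promotes cell death. Map2k7, a kinase gene of the JNK pathway, lay in a cluster of 14 regions with 8 coding genes, and Lmna, the gene of the nuclear lamins A and C, in one of 12 regions. The Rassf1 cluster packed 12 coding genes into 61632 bp, and 9 of its 10 regions lay at starts. Bcl10, an adaptor in the path from antigen receptors to NF-kB, and Rap1b, a small GTPase that activates integrins, each headed a cluster of 11 regions. The Fem1a cluster (12 regions) holds Uhrf1, needed to copy DNA methylation at replication, and Ticam1, a Toll-like receptor adaptor. Ankrd24, Syne3, D16Ertd472e, Zfp324 and Sfi1 complete the leading 20 together with the histone clusters H4c8 and H2ac18.

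Less than 10% of the sum came from gene starts in 17 clusters. They included Myo3a, the chromosome 4 cluster, Mid1, Sfi1 (28 regions in 58337 bp, 22 of them called in all 4 lists), Stard13, 2 clusters at Chd2, Cobll1, Tex14, Wnt7b and Per3. The Mid1 cluster on the X chromosome overlaps the pseudogene Erdr1. The other X-linked cluster (28 regions over 85718 bp) has no coding gene and lies over Firre, a long non-coding RNA gene known for its repeats and its role in nuclear organisation. Its regions were of even strength, the strongest holding 8.395% of the sum, and 21 of the 28 were called in all 4 lists.

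Of the 4 gene families counted, histone genes had the highest share in the clusters. A gene is counted as linked to a cluster where its body overlaps the span or where it is the nearest coding gene of a region in the cluster. Of 97 histone genes in the annotation, 46 (47.4%, 37.2 to 57.8) were linked, all to 5 clusters, against 878 of 21887 protein-coding genes (4.01%), of which 839 (3.83%) overlap a span with their bodies. Histone genes are transcribed in S phase and sit in tandem arrays. The H4c8 cluster on chromosome 13 held 21 regions, 17 at gene starts, and 15 coding genes that are all histones. Of its regions 21 were called in GFP 16 h, 21 in E47 4 h and 20 in E47 16 h. Near-identical histone genes can share reads, and how the authors placed such reads is not given in the sources used here. Transfer RNA genes lay in the spans as well: 33 in 10 clusters, 8 of them in the H4c8 cluster and 8 in the H2bc11 cluster. Their share over all transfer RNA genes is not given here. Ribosomal protein genes were linked for 16 of 83 (19.3%, 11.4 to 29.4), spread over 15 clusters, among them Rps18, Rpl29 and Rplp2. Zinc finger genes with Zfp or Zscan symbols were linked for 13 of 413 (3.15%), close to the share of all genes. Olfactory receptor genes, most of which are silent outside sensory neurons, were linked for 1 of 1110 (0.0901%).

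Most genes of each of the 16 lists looked up lay outside the clusters. Cytokine receptors and JAK-STAT genes were linked for 7 of 41 (17.1%, 7.15 to 32.1): the receptor chains Il4ra, Il21r, Il12rb1, Ifngr2 and Ifnar1, the kinase Tyk2 and the feedback inhibitor Cish. Of TNF family, costimulatory and inhibitory receptors there were 4 of 29 (13.8%, 3.89 to 31.7), Tnfrsf25, Klrg1 (also on the ILC2 list), Tnfrsf1b and Tnfrsf9. ILC2 identity and effector genes gave 4 of 41 (9.76%, 2.72 to 23.1), namely the inhibitory lectin receptor Klrg1, the prostacyclin receptor Ptgir and the cytokines Il13 and Il4. AP-1, NF-kB and activation factors gave 3 of 36 (Fosb, Bach1 and Junb), and survival and cell cycle genes 2 of 20, Bbc3 and the cyclin-dependent kinase inhibitor Cdkn2c. T cell genes (Cd247, the zeta chain of the T cell receptor complex), signalling genes (Ptpn6, the phosphatase SHP-1), migration genes (Itgal, a chain of the integrin LFA-1), ILC3 genes (Lif), cytotoxic genes (Nkg7, which is only the nearest gene of a region) and housekeeping genes (Rps18) gave 1 each, of 35, 37, 29, 11, 14 and 20. None of the 17 innate lymphoid precursor regulators, 15 E protein and Id genes, 13 B cell genes, 15 myeloid genes or 10 mast cell genes was linked to a cluster. Of the 16 lists the interval lay above 4.01%, the share of all coding genes, for cytokine receptors and JAK-STAT genes, and included it for the other 15. No difference between lists was tested, and the interval of the ILC2 genes overlaps that of the cytokine receptors. Neighbours such as Il4ra and Il21r, or Il13 and Il4, share a cluster and are not independent.

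Most of the ILC2 markers checked had open regions outside these clusters, as did housekeeping genes. All 13 ILC2 markers had at least 1 GFP 4 h region named for them as the nearest gene, 108 regions in all. Of these regions 18 lay in a cluster, a larger share than the 5.55% of all GFP 4 h regions. All 18 belonged to Klrg1 (12) or Il13 (6), so this share rests on those genes alone, and regions of 1 gene are not independent. The Il13 cluster was near the limit, at rank 273 by sum. Gata3, the central ILC2 transcription factor, had 10 regions and Ptpn13 15, none in a cluster, while Il17rb had 1, at strength percentile 7.91. The 6 housekeeping genes checked had 33 regions, none in a cluster. Among markers of other cells, Cd3e, Cd3g, Cd4, Cd8a, Ncr1, Gzma, Cd79a, Ms4a1, Csf1r, Lyz2, Mcpt8 and Fcer1a had no region. Each of the 6 ILC3 markers had at least 1 region, 7 in all, none at a gene start. Markers of T cells had 23 regions, of NK cells and ILC1s 15, of myeloid cells 22, of mast cells and basophils 17 and of B cells 6, and none of these lay in a cluster. At a share of 5.55%, few regions of any 1 of these sets, or of the housekeeping genes, would lie in a cluster.

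Promoters inside the clusters resembled other open promoters in GC content and in the motifs given. They more often had another start close by on the opposite strand. Of the 300-base windows from 250 before to 50 after a start, 753 lay in cluster regions, 9943 in other GFP 4 h regions and 10567 in none. Median GC content was 61.7%, 62.3% and 49.7% in that order. A GC box was found in 70.9% (67.5 to 74.1), 69.9% and 22.2%, against 46.2% of all windows, and the ETS motif in 22.6% (19.6 to 25.7), 20.3% and 2.59%, against 11.6% of all. CCAAT differed little, with 40.9%, 38.7% and 37.5%. The E-box CAGCTG was found in 13.8% (11.4 to 16.5), 13.7% and 17.4%, CAGGTG in 15.9% (13.4 to 18.7), 17.2% and 22.4%, and TATAAA in 7.44%, 5.59% and 19.6%. Starts with another start on the opposite strand, reading away from it, within 1 kb made up 19.8% (17.0 to 22.8) of cluster promoters and 14.4% (13.7 to 15.1) of other open promoters. Joining nearby regions favours places where starts lie close together, so a higher share is partly built in. How many of these starts belong to the histone arrays was not counted. The promoter table covers 17492 of 21887 coding genes (79.9%) and none on chromosome 18. For the other genes both gene ends were counted as starts in the position classes above.

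The other 3 lists called most cluster regions. All 3 comparisons use the same GFP 4 h regions. GFP 16 h called 2240 of 2369 (94.6%, 93.6 to 95.4), while 92% of all GFP 4 h regions were called there. E47 4 h called 2207 (93.2%, 92.1 to 94.1), against 87.6% of all. E47 16 h called 2059 (86.9%, 85.5 to 88.2), against 78% of all. All 4 lists held 1963 (82.9%, 81.3 to 84.4), against 73.2% of all. The cluster regions thus exceeded the whole list by 2.57 percentage points in the control cells and by 5.52 and 8.94 percentage points in the cells with E47-ER. Some excess is built in, since the clusters were chosen by −log10 p and stronger regions were called more often. The gaps are not directly comparable, because 92% over the whole list leaves less room for an excess than 78%. The E47 16 h list is the shortest and the GFP 16 h list the longest, so these shares move with list length.

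With all lists cut to the 40649 strongest regions and the clusters built again, the order of the lists stayed, but GFP 16 h and E47 4 h came within each other's intervals. GFP 16 h then called 91.7% (90.5 to 92.8) of 2235 cluster regions against 87.8% of all, E47 4 h 91.4% (90.2 to 92.5) against 84.7%, and E47 16 h 88.4% (86.96 to 89.7) against 80.4%. All 4 lists shared 82.3% (80.7 to 83.9), against 73% of all, and both GFP lists without either E47 list held 63 regions (2.82%), against 6.39% of all.

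Strength in the GFP 4 h list went with being called elsewhere. Cluster regions had a median strength percentile of 63.6 in that list. With the list split into 4 strength classes of equal size, all 868 cluster regions in the strongest class were called in all 4 lists, as were all 1132 above percentile 65.7. In the weakest class 136 of 399 (34.1%, 29.4 to 39.0) were. Cluster regions called in all 4 lists had a median percentile of 70.9, and the rest one of 18.3. Compared at like strength, GFP 16 h called cluster regions about as often as other regions, for example 72.7% (68.0 to 77.0) in the weakest class and 96.0% (93.8 to 97.6) in the next, against 72.2% and 96.2% in the other clusters of 3 or more. In E47 16 h the same 2 classes gave 50.6% (45.6 to 55.6) and 79.5% (75.6 to 83.1), against 45.4% and 76.2% in those other clusters.

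**Figure D2:**
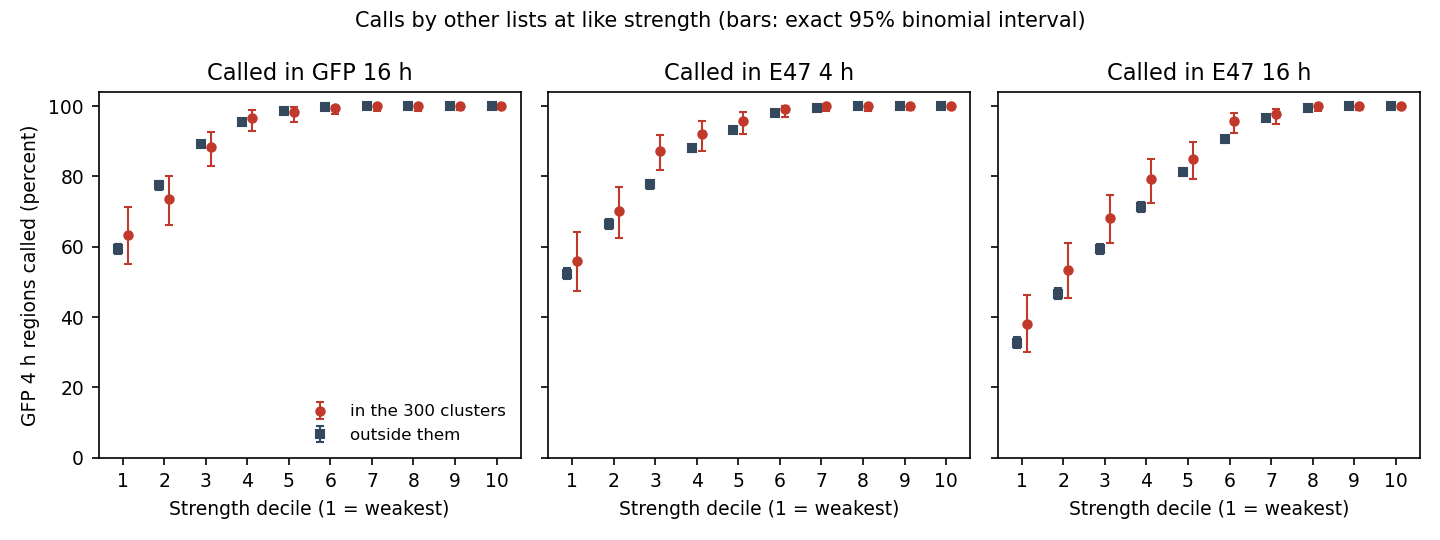
The percent of GFP 4 h regions called by GFP 16 h, E47 4 h and E47 16 h, by decile of strength in the GFP 4 h list, for regions in the 300 clusters (circles) and outside them (squares), with exact 95% binomial intervals. Shares climb from the weakest decile to nearly 100 in the upper deciles in all panels, and the gap between circles and squares varies by decile: E47 4 h called 55.9% in the clusters and 52.4% outside them in the first decile, with overlapping intervals, 87.3% and 77.7% in the third, where the gap is widest, and 92.1% and 88.0% in the next, and GFP 16 h called 88.4% and 89.2% in the third.

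Position separated the regions further. At gene starts, cluster regions were called in all 4 lists in 90.4% (88.4 to 92.1), close to the 90.5% outside the clusters. Away from starts the share was 77.2% (74.9 to 79.4) in the clusters and 64.2% (63.7 to 64.8) outside them. In the second weakest class away from starts, E47 4 h called 93.4% (90.3 to 95.7) of cluster regions and 86.6% (85.9 to 87.3) of others, and E47 16 h 79.1% (74.6 to 83.2) and 70.9%. At starts of that class the order was the opposite, with 90.9% (83.9 to 95.6) in the clusters and 96.9% (95.9 to 97.6) outside for E47 4 h, and 80.9% (72.3 to 87.8) against 87.9% (86.2 to 89.4) for E47 16 h, from 110 cluster regions.

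Missing regions were the weak members of a cluster. The strongest and the second strongest region of all 300 clusters were called in all 4 lists, and so was the third in 287 (95.7%, 92.7 to 97.7). The share was 85.2% for region 5 and 57.1% for region 10, and the weakest region of the cluster was called in all 4 lists in 141 of 300 (47%). Complete in all 4 lists were 95 clusters, 93 missed 1 region in some list, 112 missed at least 2 and 20 at least 4. Across the 300 clusters, the percent of regions called in both E47 lists had a Spearman correlation of −0.30 with the number of regions and 0.39 with their median strength. This is a description, since all clusters come from the same 4 lists.

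**Figure D3:**
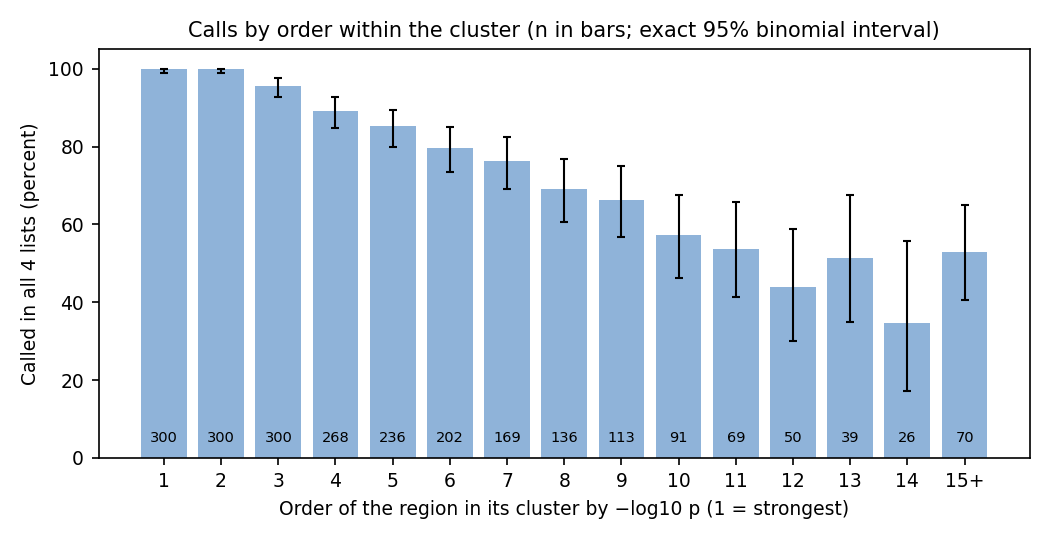
Bars give the percent of regions called in all 4 lists by their order of −log10 p within the cluster, with the number of regions in each bar and exact 95% binomial intervals. The last bar pools order 15 and above (70 regions). The first and second bars stand at 100, the third at 95.7 and bar 10 at 57.1.

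The clusters of 5 or more regions with the lowest share called in both E47 lists were Psmc6 (3 of 8), Suco (2 of 5), Glis2 (5 of 10), Oxsr1 (5 of 9), Gpr65 and Cxxc1 (8 of 14 and 4 of 7), and then Hsph1, Tmem123, BC031181 and Ing1 (3 of 5 each). Over all cluster regions, 2011 of 2369 (84.9%) were called in both E47 lists, against 76.0% in the other clusters of 3 or more. The clusters named here were picked on this share and are its extremes. Psmc6 encodes a proteasome ATPase, Oxsr1 a stress kinase, Cxxc1 a subunit of a histone H3 lysine methyltransferase complex that binds CpG islands and Hsph1 a heat shock protein. At Psmc6 the 3 strong start regions of Ero1a, Psmc6 and Styx were called in all 4 lists, with folds of 13.2, 15.3 and 23.9 in GFP 4 h and 14.6, 15.2 and 25.03 in E47 16 h. Its other 5 regions lay at strength percentiles of 13.8 to 47.1, and 1 of them was called in E47 16 h. The Glis2 cluster, which holds the genes of the transcription factor TFAP4 and of Srl, had all 10 regions called in E47 4 h, 8 in GFP 16 h and 5 in E47 16 h. The Suco cluster had 4 of 5 in GFP 16 h, 4 in E47 4 h and 2 in E47 16 h. In lists of equal length the counts in both E47 lists were 3 of 8 for Psmc6, 2 of 4 for Suco, 5 of 9 for Glis2, 5 of 8 for Oxsr1 and 7 of 12 for Gpr65. GFP 16 h, a single list, then called 6, 4, 7, 8 and 12 of them in the same order.

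Gpr65 encodes a proton-sensing receptor of lymphocytes, and its cluster of 14 regions runs over 64194 bp through the neighbouring gene Galc. GFP 16 h called 13 of the 14, E47 4 h 12 and E47 16 h 8. The 8 regions of E47 16 h included the starts of both genes and a region 6971 bp beyond Gpr65, whose fold was 16.7 in GFP 4 h, 20.2 in GFP 16 h, 18.6 in E47 4 h and 21.1 in E47 16 h. Of the 6 regions it did not call, 5 lay inside Galc and 1 lay 15722 bp beyond Gpr65, where the folds were 9.96 in GFP 4 h, 10.8 in GFP 16 h and 7.18 in E47 4 h. Their strength percentiles were 4.09 to 47.5. At equal length E47 4 h called 8 of 12 Gpr65 regions and GFP 16 h all 12, so that the gap at 4 h also depends on list length.

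The Klrg1 cluster on chromosome 6 spans 51397 bp and has 14 regions, of which 12 are named for Klrg1 and 2 for the neighbouring M6pr. All 14 were called in GFP 16 h and in E47 4 h, and 12 in E47 16 h. The region 236 bp from the Klrg1 body had folds of 14.5 in GFP 4 h, 12.1 in GFP 16 h, 13.5 in E47 4 h and 11.6 in E47 16 h. The regions not called in E47 16 h lay 12745 bp and 7434 bp from the body, with strength percentiles of 16.7 and 43.5. A region found with E47 at both times and with GFP at neither lay 5865 bp from M6pr, with folds of 4.79 in E47 4 h and 4.351 in E47 16 h.

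The Il13 cluster holds the type 2 cytokine genes Il13 and Il4 and most of Rad50, a DNA repair gene whose introns carry the control region of that locus. The cluster ranked 273 by sum, near the limit, with 858 against 837.871 for Ing1, the last kept. When the same rule was applied to the other lists, the Il13 cluster overlapped none of their leading clusters. Of 16 regions over 65387 bp, GFP 16 h called 16, E47 4 h 14 and E47 16 h 14, and 13 were in all 4 lists. All 6 regions named for Il13 were in all 4. The strongest region, 1679 bp from Il13, had folds of 7.22, 5.36, 6.84 and 6.10 in GFP 4 h, GFP 16 h, E47 4 h and E47 16 h. A region between Il13 and Rad50, at strength percentile 4.29, was found with GFP at both times and with E47 at neither. Il4ra, the receptor chain shared by IL-4 and IL-13, lay with Il21r in another cluster of 16 regions, of which 16, 15 and 13 were called in GFP 16 h, E47 4 h and E47 16 h. In the Ifngr2 cluster all 9 regions were called in all 4 lists, and in the Tnfrsf1b cluster 10 of 11 were. Junb lay in the Hook2 cluster, with all 9 regions in all 4 lists, and Fosb in a cluster of 13 with 11.

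**Figure D4:**
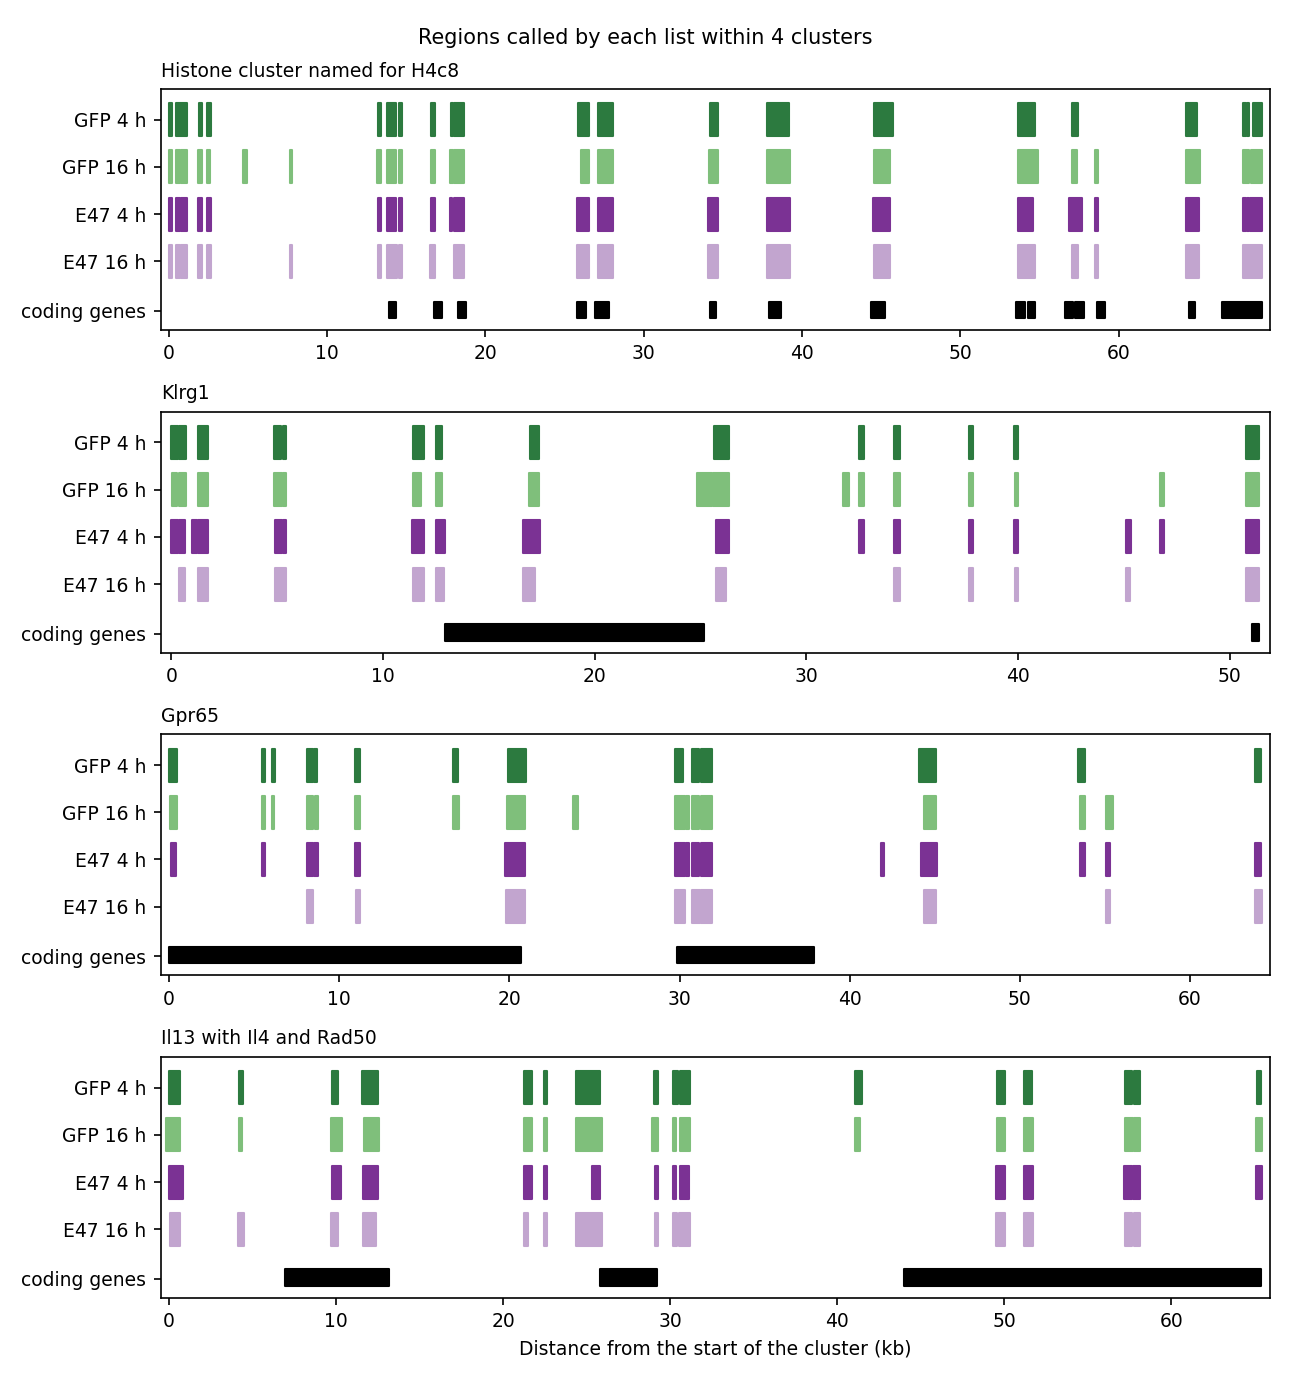
Rows of each panel show the regions called by GFP 4 h, GFP 16 h, E47 4 h and E47 16 h and the bodies of coding genes within 4 clusters, by distance in kb from the start of the cluster. In the histone cluster 20 of 21 GFP 4 h regions recur in every row, in the Klrg1 cluster 12 of 14, in the Gpr65 cluster 7 of 14 and in the Il13 cluster 13 of 16.

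Few cluster regions were present in both control lists and missing from both E47 lists. There were 71 (3.00%, 2.348 to 3.77), against 6.73% of all GFP 4 h regions, in 60 clusters. Of these 14 lay at gene starts, 32 inside genes and 25 between genes. They were weak, with a median strength percentile of 14.6 and a highest of 57.2. The clusters were chosen by strength, which favours a low share of such weak regions. The strongest was at the start of Fam214b, with folds of 4.17 in GFP 4 h and 4.48 in GFP 16 h. The next lay inside Cobll1, with 10.8 and 12.03, and others inside U2af2, a splicing factor gene (9.02 and 11.1), and inside Tet2, a gene for an enzyme that oxidises methylcytosine (9.18 and 8.13). The Ankrd24 cluster held 3, near Tle6 and Sirt6, and the H2ac18 histone cluster held 3, including 1 at the start of H2bc21. Of the other patterns, 164 cluster regions (6.92%, 5.93 to 8.02) were missing from E47 16 h alone, against 10.1% of all, 32 (1.351%) were called at 4 h in both kinds of cell and at 16 h in neither, against 1.98%, and 43 (1.82%) were in no other list, against 3.19%.

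Regions of the reverse pattern were also present at a lower share than in the whole list. The spans were drawn from GFP 4 h regions, which favours overlap with that list and lowers this share by construction. Of 2527 E47 4 h regions inside the spans, 48 (1.90%, 1.40 to 2.51) were called in both E47 lists and overlapped no region of either GFP list, against 4.42% of all E47 4 h regions. They lay in 44 clusters, 13 of them at gene starts, at a median strength percentile of 22.5 in the E47 4 h list. The strongest was in the Ifnar1 cluster, 22424 bp from Il10rb, the shared chain of the IL-10 and IL-22 receptors, with folds of 7.61 in E47 4 h and 8.21 in E47 16 h. Further ones lay near Dzip1 (6.12 and 6.06), in E2f4, a cell cycle regulator gene (5.08 and 5.24), near Gatad2a, a NuRD complex gene (7.52 and 6.91), and in Il21r (4.66 and 3.89). Regions of both kinds occurred in 11 clusters, among them Bcl10, Tet2, Il4ra and Cobll1.

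Regions that other lists added within the spans were fewer than elsewhere. GFP 16 h had 300 of its 2571 regions in the spans without a GFP 4 h counterpart (11.7%, 10.5 to 13.0), against 24.8% of its whole list. E47 4 h had 323 of 2527 (12.8%, 11.5 to 14.1), against 24.9%, and E47 16 h 168 of 2209 (7.61%, 6.53 to 8.79), against 17.6%. The spans were set by GFP 4 h regions, which favours overlap. Joined across lists, the additions formed 504 regions in 203 clusters. Espn and Ndst1, a heparan sulphate enzyme gene, had most with 11 each, followed by the cluster over Firre with 9 and by Tet2 and Ccdc88c with 7 each. At Espn 8 of them were regions of GFP 16 h, and 6 and 3 new regions came from E47 4 h and E47 16 h, with some shared between lists.

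Leaving out all regions within 2.5 kb of a gene start before joining gave another set of clusters, with other genes. It held 1969 regions in 300 clusters, of which 71 (23.7%) overlapped the clusters above, and 70 (23.3%) of the clusters above overlapped it. GFP 16 h called 93.3% (92.1 to 94.4) of its regions, against 89.8% of all regions this far from a start, E47 4 h 91.2% (89.8 to 92.4) against 82.9%, and E47 16 h 83.1% (81.4 to 84.7) against 70.2%. All 4 lists held 78.3% (76.4 to 80.1), against 64.3%. Both GFP lists and neither E47 list held 91 regions (4.62%), against 9.73%. It was linked to 338 genes (1.54% of coding genes), of which 198 (0.905%) overlap a span with their bodies, so that many are only the nearest gene of a region. Of 17 precursor regulators 3 overlapped it (Tox2, Ets1 and Bcl11b), where none was linked to the clusters with starts. Of 36 activation factors 5 were linked, Bach1, Nfkb1, Nfatc1 and Nfatc2 by their bodies and Jun as the nearest gene. Of 41 cytokine receptors and JAK-STAT genes 6 were linked, but only Il4ra, Il12rb1 and Il17ra by their bodies. Of 29 migration genes 4 were linked, Selplg by its body and Ccr1, Cd44 and Cd69 as nearest genes. Of the ILC2 list 4 of 41 were again linked, Bcl11b, Ets1 and the neuropeptide receptor Vipr2 by their bodies and the neuromedin U receptor Nmur1 as the nearest gene, while Klrg1, Ptgir, Il13 and Il4 were not. No E protein or Id gene was linked to either set.

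**Figure D5:**
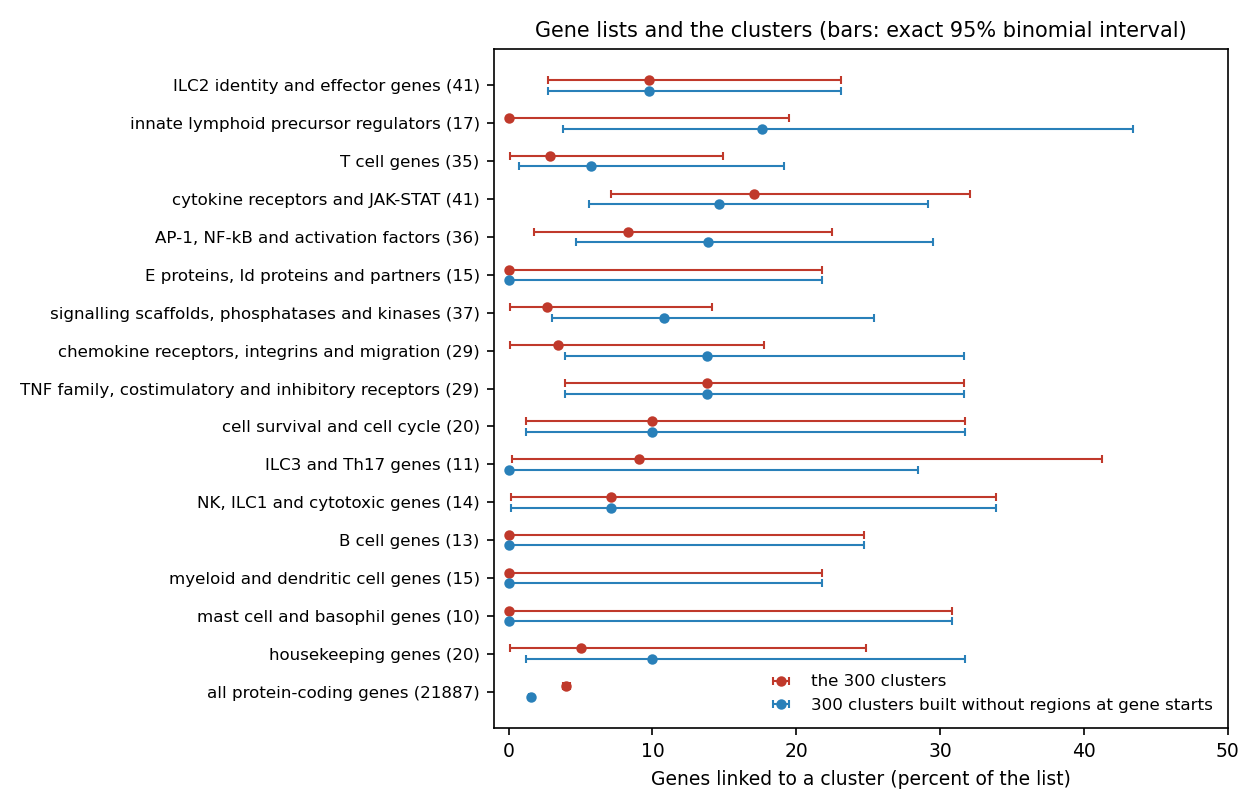
For each gene list, with its number of genes in parentheses, the percent linked to the 300 clusters (red) and to the 300 clusters built without regions near gene starts (blue), by gene body or as the nearest gene of a region, with exact 95% binomial intervals. Cytokine receptors and JAK-STAT genes stand at 17.1 and 14.6, and precursor regulators at 0 and 17.6, against 4.01 and 1.54 for all coding genes.

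The same rule was applied to each of the other lists. The 300 leading clusters of GFP 16 h overlapped 215 of those of GFP 4 h (71.7%, and 72% of its own), those of E47 4 h 224 (74.7%, and 75% of its own) and those of E47 16 h 221 (73.7%, and 74% of its own). The E47 lists thus had no fewer of the clusters than GFP 16 h. Of the 300 clusters, 162 overlapped a leading cluster in every other list and 189 in both E47 lists, and 31 overlapped none. The Il13 cluster was among these 31. Among the leading 20, H2ac18 was the only cluster missing from a list, namely both E47 lists.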

How the data were processed

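ATAC-seq peaks of 8 samples in 4 groups of 2 were deposited by group, with 1 list each, whose names point to a conservative set from irreproducible discovery rate analysis of replicates. The submitters' processing notes name build mm10 and the tools MACS2, Bowtie2, cutadapt and DiffBind. Versions and settings: not given in the sources used here. Each deposited line holds a score (540 to 1000), a fold enrichment, which is a ratio over local background, a −log10 p, a −log10 q (not used) and a summit offset, as the authors' peak caller gave them. The deposited fold and −log10 p belong to their own list and only describe, rank or filter its regions. The lowest −log10 p is 2.00 in each list, and depth is unknown.

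Overlapping lines were merged (112023, 134423, 131575 and 109772 lines in GFP 4 h, GFP 16 h, E47 4 h and E47 16 h). A GFP 4 h region counted as called where another list overlapped it by at least 1 bp. Strength is the percentile of −log10 p in the list. Genes and promoters came from RefSeq tables of GRCm38.p6, which is the assembly behind mm10. A region is named for the nearest coding gene body within 100 kb of its summit, which is a label of position, and a cluster for the gene nearest the regions with most of its sum. Intervals are Clopper-Pearson. Groups came from the titles.

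The clusters, gene lists and tests were chosen with earlier results of these data known. Named were the 20 largest sums, the 10 clusters with the lowest share in both E47 lists, the 5 with most added regions, 3 on each side of the limit and up to 4 members per gene list. Further list members, the 6 promoters, the clusters drawn, those with few start regions and the single regions of the GFP and E47 patterns were chosen after their values were seen. The code recovered all 2343 regions and 500 clusters of a simulation. The scripts ran in Python 3.11.15 with scipy 1.17.1, numpy 2.4.6, pandas 2.3.3 and matplotlib 3.10.9. Alternatives covered overlap, list length, threshold, joining distance, ranking, gene starts, number of clusters and chromosomes.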

Additional observations from a re-analysis of the deposited data

How the results depend on the processing

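No paired analysis was possible because each group has 1 list for both samples, and for the same reason no replicate could be left out. Requiring that regions share 50% of the shorter, a summit within 150 bp, a −log10 p of at least 5, autosomes only, or a span of at least 5 kb (the last chosen after seeing the data) moved none of the 7 results outside their intervals or by over 1.5 times. With lists of equal length, 91.7%, 91.4% and 88.4% of cluster regions were called in GFP 16 h, E47 4 h and E47 16 h. Joining at 5 kb gave 94.4% in E47 4 h, 90.04% in E47 16 h and 86.9% in all 4 lists, with 32 regions in both GFP lists and neither E47 list, 7 in both E47 lists and neither GFP list, and 172 complete clusters; joining at 25 kb gave 84.8% in E47 16 h and 80.9% in all 4, with 171, 132 and 39. Ranking by fold gave 93.2%, 91.1%, 83.6% and 78.7% in GFP 16 h, E47 4 h, E47 16 h and all 4 lists, with 122 regions of the GFP kind and 45 complete clusters. Leaving out regions within 2.5 kb of a start gave 93.3%, 91.2%, 83.1% and 78.3%. Keeping 100 clusters gave 88.3% in E47 16 h with 31, 13 and 29, and keeping 600 gave 132 regions of the GFP kind and 202 complete clusters, where fewer or more clusters change the counts by construction. The cause of the other shifts was not tested. In all 12 alternatives the share called was highest in GFP 16 h and lowest in E47 16 h.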

Other observations

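The clusters were not spread evenly over the chromosomes. Chromosome 7 held 37 of the 300 clusters with 10.04% of its GFP 4 h regions, chromosome 8 held 23 with 9.17% and chromosome 10 held 26 with 7.98%. Chromosome 15 had 7 clusters with 2.45% of its regions, and the X chromosome 2 with 3.64%. Across all chromosomes the clusters hold 5.55% of the regions.

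Besides coding genes, the spans overlapped 135 long non-coding RNA genes in 103 clusters, 33 transfer RNA genes in 10, 32 small nucleolar RNA genes in 16 and 23 microRNA genes in 22. No share over all genes of each kind is given here. The counts therefore do not show whether the clusters hold more of them than other DNA does. The cluster at Slc3a2, the gene of the heavy chain of several amino acid transporters, held 8 of the small nucleolar RNA genes. The cluster at Ang, a ribonuclease gene, held 7 of the transfer RNA genes, and the histone clusters H4c8 and H2bc11 held 8 each.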
